A study of Mus musculus with 12 samples.

Results

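The comparison described here sets CD8 T cells of the Tc17 fate against those of the Tc1 fate, both from wild-type (WT) mice. It holds the 6 arrays whose titles name Tc17 WT or Tc1 WT, of 12 arrays in the series. CD8 T cells become different effectors depending on the cytokines present when the antigen receptor is engaged. IL-12 signals through STAT4 and favours interferon-gamma, T-bet and cytotoxic granules, the Tc1 state. IL-6 signals through STAT3 and, with TGF-beta, which signals through SMAD proteins, favours IL-17, the Tc17 state. Tc17 cells are known for weak killing and for a less fixed identity than Tc1 cells.

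Per the labels, naive splenic CD8+ T cells of 2 genotypes were sorted and mixed in equal parts. The genotypes were WT and Cd4cre+ STAT3fl/fl, written STAT3-/-, in which a Cre recombinase driven by the Cd4 promoter deletes a floxed Stat3 in T cells. The mixture was activated with anti-CD3 (1 µg/ml) and anti-CD28 (3 µg/ml) over 4 days. For the first 3 days the medium held IL-12 for Tc1, or IL-6 and TGFb for Tc17, and for the last day IL-2. The genotypes were then separated by sorting on allelic markers, so every WT library came from cells grown beside STAT3-/- cells. The strain, age and sex of the mice, and any pooling of animals are not given in the sources at hand. Each group has biological replicates 1 and 2 and 1 technical array, which was averaged with biological replicate 2, so n = 2 samples per group throughout.

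Values are log2 intensities, and array medians over all probe sets lay between 3.95 and 4.10. The Tc17 WT technical array stood apart from its group: on the first principal component of the tested genes it lay at 44.8, against 25.4 and 25.8 for the biological Tc17 WT arrays. Over tested genes the differences between the biological arrays of a WT group had an SD of 0.144 in Tc1 and 0.191 in Tc17. Between biological replicate 2 and the technical array the SDs were 0.247 and 0.352. The number of arrays limits the precision, and the labels do not say whether replicates were separate animals or cultures, so the p-values reflect the spread among these samples alone, which may be technical. Near background the intensities compress, and the fold of a gene that is dim in 1 group is understated.

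A gene was called when its limma adjusted p (Benjamini-Hochberg over 9862 genes, two-sided) was under 0.05. By that rule 2468 genes differed between Tc17 WT and Tc1 WT, 25.0% of those tested, and 3914 had an unadjusted p under 0.05. Of them 691 were higher in Tc17 WT (7.01% of genes tested) and 1777 lower (18.0%). Those shares are the background to every count of list members below, and no list was tested against them. Changes of at least 2-fold were closer in number, 148 higher and 126 lower, and 33 genes were at least 4-fold higher against 19 lower. The 3 Tc17 WT arrays did not overlap the 3 Tc1 WT arrays for 2295 of the called genes, and for 4027 of all genes tested (40.8%), 1063 lying above (10.8%) and 2964 below (30.1%). The median difference of all genes tested was -0.10, and the split between higher and lower calls followed the scaling. With the values as deposited, higher genes made up 28.0% of the calls. They made up 50.5% (1139 against 1115) once each array was centred on its median of tested genes. The share of higher calls was 50.4% with cyclic loess and 45.3% with quantile normalization. It was 18.5% when the all-probe median of each array was removed. Without Tc1 WT replicate 1 the test called 1100 genes, without Tc1 WT replicate 2 it called 1292, and of these 1087 and 1233 were among the 2468.

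**Figure D1:**
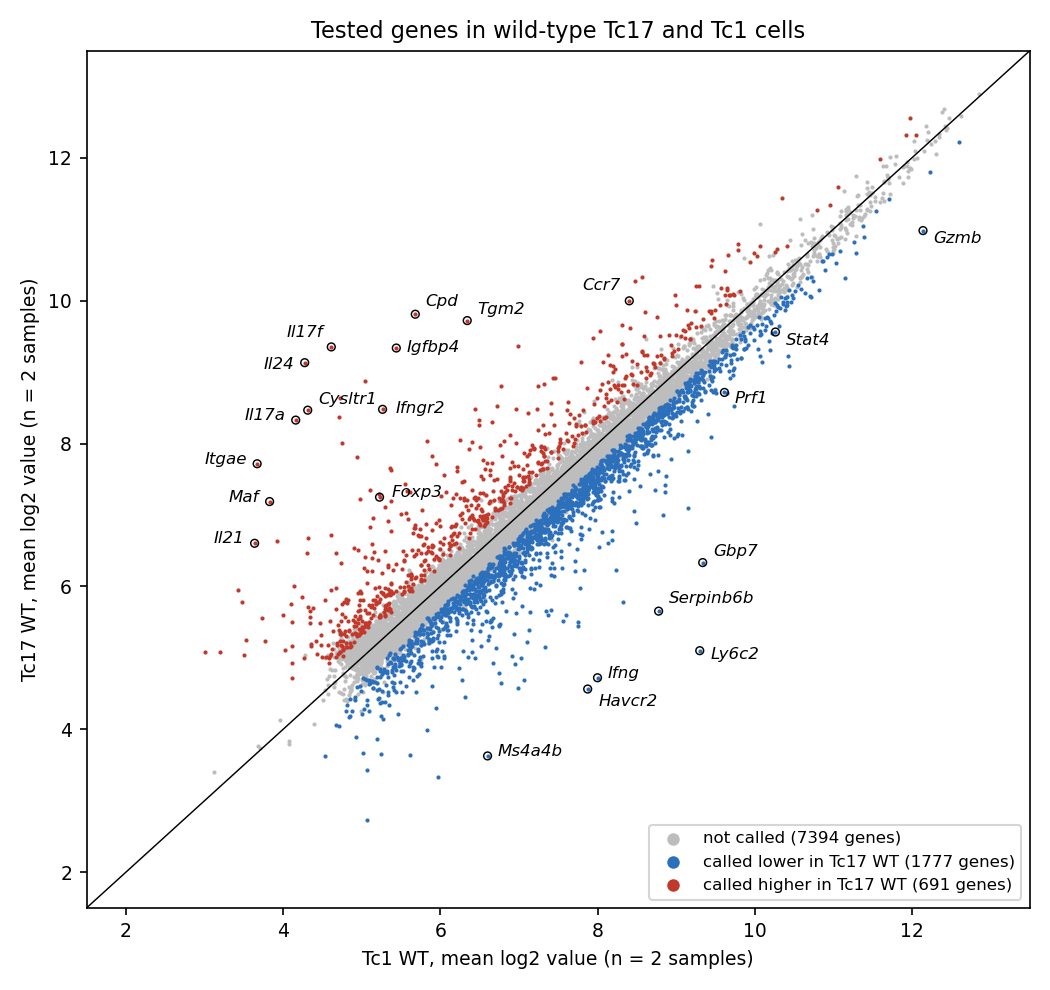
Mean log2 value in Tc17 WT (vertical axis) against Tc1 WT (horizontal axis) for the 9862 genes tested, each mean over 2 samples, with equality on the diagonal. Red points are the 691 genes called higher in Tc17 WT and blue points the 1777 called lower. Il24, Il17f and Il17a lie farthest above the diagonal and Ly6c2, Havcr2 and Ifng farthest below it among the genes named on the plot.

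The cytokines that define the fate were higher in Tc17 WT. Il17a, which encodes IL-17A, was at 4.13 and 4.11 on the biological Tc1 WT arrays and 4.27 on the technical one. On the Tc17 WT arrays it was at 7.90, 8.07 and 9.44, the last being the technical array. All 3 Tc17 WT values lay above all 3 Tc1 WT values, and the difference was 4.17 ± 0.22 (SE), or 18.0-fold (adjusted p = 6.28e-06). Il17f, encoding its partner IL-17F, was at 4.77, 4.33 and 4.59 in Tc1 WT and 8.88, 9.05 and 10.61 in Tc17 WT, with the technical array again the highest. It rose by 4.74 ± 0.26, or 26.7-fold (adjusted p = 6.52e-06). Both genes passed the filter on dim genes only through Tc17 WT, so they had to differ, and their Tc1 WT level cannot be told from background.

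The regions upstream of these genes are shown with that of Ifng, the cytokine of the opposite fate, because these cytokines give the fates their names and functions. Each line holds the 250 bases before the RefSeq start site on GRCm38.p6, 5′ to 3′ on the gene's strand: chr1:20730655-20730904 (plus strand) for Il17a, chr1:20784271-20784520 (minus strand) for Il17f, and chr10:118440796-118441045 (plus strand) for Ifng. Capitals mark a match, on either strand, to AGGTCA, a core bound by ROR-alpha and other nuclear receptors, or to TTCNNNGAA, the core of a STAT site.
Il17a: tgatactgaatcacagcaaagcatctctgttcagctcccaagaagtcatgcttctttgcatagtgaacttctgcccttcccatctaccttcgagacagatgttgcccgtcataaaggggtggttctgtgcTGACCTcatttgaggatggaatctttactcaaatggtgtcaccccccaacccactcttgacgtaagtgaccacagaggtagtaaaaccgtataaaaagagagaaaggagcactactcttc
Il17f: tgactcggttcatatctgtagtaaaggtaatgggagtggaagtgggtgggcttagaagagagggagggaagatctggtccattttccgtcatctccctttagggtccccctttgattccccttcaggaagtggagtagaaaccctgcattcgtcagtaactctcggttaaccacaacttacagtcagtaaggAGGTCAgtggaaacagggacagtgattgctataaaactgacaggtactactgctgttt
Ifng: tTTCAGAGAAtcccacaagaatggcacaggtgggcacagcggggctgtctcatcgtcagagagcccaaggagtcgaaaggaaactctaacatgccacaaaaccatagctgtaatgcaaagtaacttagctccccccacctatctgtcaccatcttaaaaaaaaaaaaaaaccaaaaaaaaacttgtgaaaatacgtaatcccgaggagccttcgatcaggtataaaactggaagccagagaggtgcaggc
The Il17a match begins 120 bases before the start and reads on the opposite strand, that of Il17f begins 58 bases before, and the STAT match of Ifng begins 249 bases before. Shares were counted in longer windows of 300 bases, which begin at the same base and run past the start site. The AGGTCA core was present in 16.3% of all 32851 such windows in the table and 12% of those of tested genes. It was present in 13.3% of those of genes called higher and 11.1% of those called lower. The STAT core was present in 8.30%, 6.87%, 7.69% and 6.56% of the same sets. TCACAC, part of the site of T-box factors such as T-bet, was present in 14.5%, 10.9%, 11.7% and 10.4%. These shares are descriptions of letters, and the matches overlap no other of the 3 motifs in the windows shown.

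Other type 17 cytokines rose beside the IL-17 genes. Il24, an IL-10 family cytokine, lay between 4.16 and 4.32 on Tc1 WT arrays and between 9.03 and 9.18 on Tc17 WT arrays, the largest difference of any named gene at 4.86 ± 0.11 (29.0-fold). Lif, which signals through the same gp130 chain as IL-6, was at 5.30, 4.85 and 4.72 in Tc1 WT and 8.86, 8.82 and 8.94 in Tc17 WT, higher by 3.83 ± 0.16. Il21, made by type 17 and follicular helper T cells, rose by 2.97 ± 0.08 from values of 3.55 to 3.68 to values of 6.18 to 7.02. Of 11 type 17 cytokine genes on the list used here 5 were bright enough to be tested, and 5 of 5 rose. Of these, 4 passed the filter through Tc17 WT alone. These were Il24, Il17f, Il17a and Il21. Il22 was too dim to be tested, at 1.52 to 1.78 in Tc1 WT and 1.60 to 1.93 in Tc17 WT.

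Regulators and receptors of the type 17 fate also rose. Maf, a transcription factor that drives Il21 and Il10, rose by 3.36 ± 0.15, from 3.60 to 4.27 across the Tc1 WT arrays to 6.84 to 7.37 across the Tc17 WT arrays. It passed the filter only through Tc17 WT, so it had to differ. Ahr, the aryl hydrocarbon receptor, was at 5.02, 4.89 and 4.99 in Tc1 WT and 6.95, 7.11 and 7.90 in Tc17 WT, a difference of 2.25 ± 0.17. Rora, which encodes the nuclear receptor ROR-alpha, rose by 0.97 ± 0.13 (adjusted p = 0.00135), from 5.27 to 5.66 up to 6.30 to 6.59. Il6ra, the ligand-binding chain for IL-6, was at 4.83 to 5.25 in Tc1 WT and 6.92 to 7.59 in Tc17 WT, higher by 2.25 ± 0.11. Of 20 listed regulators and receptors 15 were tested, and 12 rose and 0 fell, with a median difference of 0.59 beside -0.10 over all genes. The number that rose was 6 without Tc1 WT replicate 1 and 7 without Tc1 WT replicate 2. Il23r and Ccr6, receptors of mature type 17 cells, were below the filter in every group. Il23r was at 4.56, 5.12 and 3.09 on the Tc17 WT arrays against 2.66 to 2.89 in Tc1 WT, and Ccr6 at 4.18 to 4.82 against 3.14 to 3.44.

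Of 18 tested genes of the IL-6 and STAT3 target list 12 rose and 1 fell, with a median of 0.60. Socs3, the feedback inhibitor that STAT3 induces, rose by 1.19 ± 0.10, from values of 6.15 to 6.39 to values of 7.37 to 7.62. Stat3 itself was at 10.13, 10.11 and 9.77 in Tc1 WT and 10.72, 10.69 and 10.38 in Tc17 WT, higher by 0.59 ± 0.18 (adjusted p = 0.0376). That call was lost without any 1 of the WT samples, the adjusted p lying between 0.0721 and 0.165. The member that fell was Pim1, a survival kinase, by 0.47, a call lost without Tc1 WT replicate 1 (adjusted p = 0.0665) or replicate 2 (0.0509). Some genes stand on several lists: Il24, Lif, Il21 and Maf are counted here as well.

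TGF-beta genes divided. Itgae, encoding CD103, an integrin chain that TGF-beta induces in CD8 T cells, was at 3.43, 4.12 and 3.69 in Tc1 WT and 7.51, 7.54 and 8.31 in Tc17 WT, higher by 4.05 ± 0.20 (16.6-fold). Ldlrad4 and Pmepa1, which both restrain SMAD signalling, rose by 2.18 ± 0.17 and 1.75 ± 0.11. Itgae and Ldlrad4 passed the filter only through the Tc17 groups of both genotypes, which favours a rise. Smad7, another inhibitor of the pathway, was not called at 0.16 ± 0.12 (adjusted p = 0.367), and its arrays overlapped, at 5.30 to 5.78 in Tc1 WT and 5.56 to 5.87 in Tc17 WT. Of 18 tested members of the list 7 rose and 4 fell, beside 7.01% and 18.0% of all genes tested, with a median of 0.08. Those that fell included Lrrc32, which displays latent TGF-beta at the cell surface, by 0.84, and Rgs16, a regulator of G-protein signalling, by 0.61. Cd9, a tetraspanin, fell by 0.70, or by 0.38 when its probe sets were averaged.

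Foxp3, which defines regulatory T cells and which TGF-beta can induce, was at 5.11, 5.28 and 5.41 in Tc1 WT and 6.87, 6.72 and 8.53 in Tc17 WT. The technical array was the highest, and the difference was 2.02 ± 0.22 (adjusted p = 0.000358). Of 12 tested regulatory T cell genes 7 rose and 1 fell, with a median of 0.47. Ikzf4, encoding Eos, a partner of Foxp3, rose by 1.00 ± 0.14. Lrrc32 was the member that fell.

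Ifng fell the most of the tested type 1 cytokines. It was at 7.91, 8.06 and 8.12 in Tc1 WT and 4.61, 4.88 and 4.78 in Tc17 WT, lower by 9.70-fold (log2 difference -3.28 ± 0.11, adjusted p = 3.22e-07). The Tc17 WT values all lay below the filter of 5, and no array overlapped. Ccl5, a chemokine of effector CD8 T cells, fell by 2.31 ± 0.20, from values of 7.41 to 7.92 to values of 4.72 to 5.72. Fasl, the death ligand, fell by 1.78 ± 0.09, and Tnfsf10, encoding the related ligand TRAIL, by 1.15 ± 0.12. Lta, encoding lymphotoxin alpha, went the other way, higher by 1.20 ± 0.12. Of 10 tested type 1 cytokines 5 fell and 1 rose, beside 18.0% and 7.01% of all genes tested, with a median of -0.35.

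The type 1 transcription factors fell by less than the cytokine. Tbx21, encoding T-bet, was at 7.19, 6.99 and 7.25 in Tc1 WT and 6.30, 6.11 and 5.97 in Tc17 WT, a difference of -0.99 ± 0.10. Eomes, a related T-box factor of effector and memory CD8 T cells, fell by 1.58 ± 0.16, from 6.22 to 6.32 down to 4.46 to 4.82. Stat4, through which IL-12 signals, fell by 0.70 ± 0.11, from 10.10 to 10.33 down to 9.11 to 9.72. Of 17 tested regulators and receptors of the fate 6 fell and 4 rose with arrays centred on the median of tested genes. With cyclic loess 7 fell and 5 rose, and with quantile normalization 7 and 4. Centring on the median of all probe sets gave 8 and 1. With the values as deposited 8 fell and 2 rose, beside 18.0% and 7.01% of all genes tested, with a median of -0.36. One of the 2 that rose was Irf8 at 0.34 (adjusted p = 0.0268), a call lost without Tc1 WT replicate 1 (0.132), Tc1 WT replicate 2 (0.102) or Tc17 WT replicate 2 (0.0712).

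The receptors for IL-12 and IL-18 parted. Il18r1 and Il18rap, the chains of the IL-18 receptor, fell by 2.26 ± 0.14 and 1.95 ± 0.21. Il18r1 was at 7.92, 7.78 and 7.39 in Tc1 WT and 5.63, 5.86 and 4.86 in Tc17 WT. Il12rb2, the signalling chain for IL-12, was at 10.56, 10.67 and 10.51 in Tc1 WT and 10.48, 10.52 and 9.82 in Tc17 WT, and was not called (-0.25 ± 0.11, adjusted p = 0.128). It was called without Tc17 WT replicate 1 (-0.41, adjusted p = 0.0144), which leaves the sample that holds the technical array. Il12rb1, shared with the IL-23 receptor, was at 0.30 ± 0.12 (adjusted p = 0.102), and was called higher in 8 of 26 alternatives. It was at 0.42 with arrays centred on the median of tested genes (0.0167), 0.44 with quantile normalization (0.0148) and 0.46 with cyclic loess (0.0118). It was also called at 0.30 with the replicate number as a block (0.0384), at 0.35 with technical arrays left out (0.0373) and at 0.45 without Tc17 WT replicate 2 (0.0384). Ifngr2, the signalling chain of the interferon-gamma receptor, which type 1 CD4 T cells are known to lose, rose by 3.21 ± 0.10 (9.28-fold). It was at 5.15, 5.74 and 5.02 in Tc1 WT and 8.49, 8.54 and 8.41 in Tc17 WT.

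Across 22 tested cytokine receptors 4 rose and 7 fell, the number that fell being 2 without Tc1 WT replicate 1 and 3 without replicate 2. The balance of these receptors followed the scaling. With arrays centred on the median of tested genes 8 rose and 3 fell, with cyclic loess 8 and 4, and with quantile normalization 7 and 4. Centring on the median of all probe sets gave 4 and 7. Among all genes tested 7.01% were called higher and 18.0% lower. Of 17 tested IL-12 and STAT4 targets 7 fell and 4 rose, with a median of -0.15. Ly6c2, a GPI-anchored antigen borne by differentiated CD8 T cells, led both this list and all named falls. It was at 9.36, 9.16 and 9.32 in Tc1 WT and 5.62, 4.66 and 4.50 in Tc17 WT, lower by 18.4-fold (-4.20 ± 0.28). Furin, a protease that IL-12 induces, rose by 0.92 ± 0.10. The number of these targets that rose was 1 without Tc1 WT replicate 1, 2 without Tc1 WT replicate 2 and 2 without Tc17 WT replicate 2.

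Cytotoxic granule genes fell in part. Gzmb, encoding the protease granzyme B, was at 12.14, 12.14 and 12.15 in Tc1 WT and 11.08, 11.13 and 10.65 in Tc17 WT, a difference of -1.16 ± 0.09 (2.23-fold lower). Prf1, encoding perforin, was at 9.50, 9.49 and 9.98 in Tc1 WT and 8.79, 8.72 and 8.56 in Tc17 WT, lower by 1.86-fold (-0.90 ± 0.12). Serpinb6b and Serpinb9, serpins that inhibit proteases, fell by 3.12 ± 0.17 and 2.12 ± 0.18, and Nkg7, a granule membrane protein, by 1.19 ± 0.11. Gzma, encoding granzyme A, was instead higher in Tc17 WT by 1.18 ± 0.15, from 5.66 to 5.73 up to 6.74 to 7.22. Of 18 tested members 7 fell and 5 rose, with a median of 0.11. With arrays centred on the median of tested genes 8 rose, with cyclic loess 8 and with quantile normalization 6, while 7 fell under each. The 7 that fell remained 7 in number without any 1 WT sample, while the 5 that rose became 1 without Tc1 WT replicate 1 and 2 without replicate 2. Sytl2, a tether of secretory vesicles that was not on the list, fell by 2.40 ± 0.11.

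NK receptor genes were split. Cd226, an activating receptor, fell by 1.08 ± 0.16, Klrk1, encoding NKG2D, by 0.94 ± 0.17, and Cd244a, encoding the receptor 2B4, by 0.83 ± 0.15. Klrc1, encoding the inhibitory receptor NKG2A, rose by 0.83 ± 0.15 and passed the filter only through Tc17 WT. Its partner Klrd1, encoding CD94, rose by 0.76 ± 0.15, a call lost without Tc1 WT replicate 2 (adjusted p = 0.0579). Of 7 tested 3 rose and 3 fell, and 1 rose without Tc1 WT replicate 2.

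**Figure D2:**
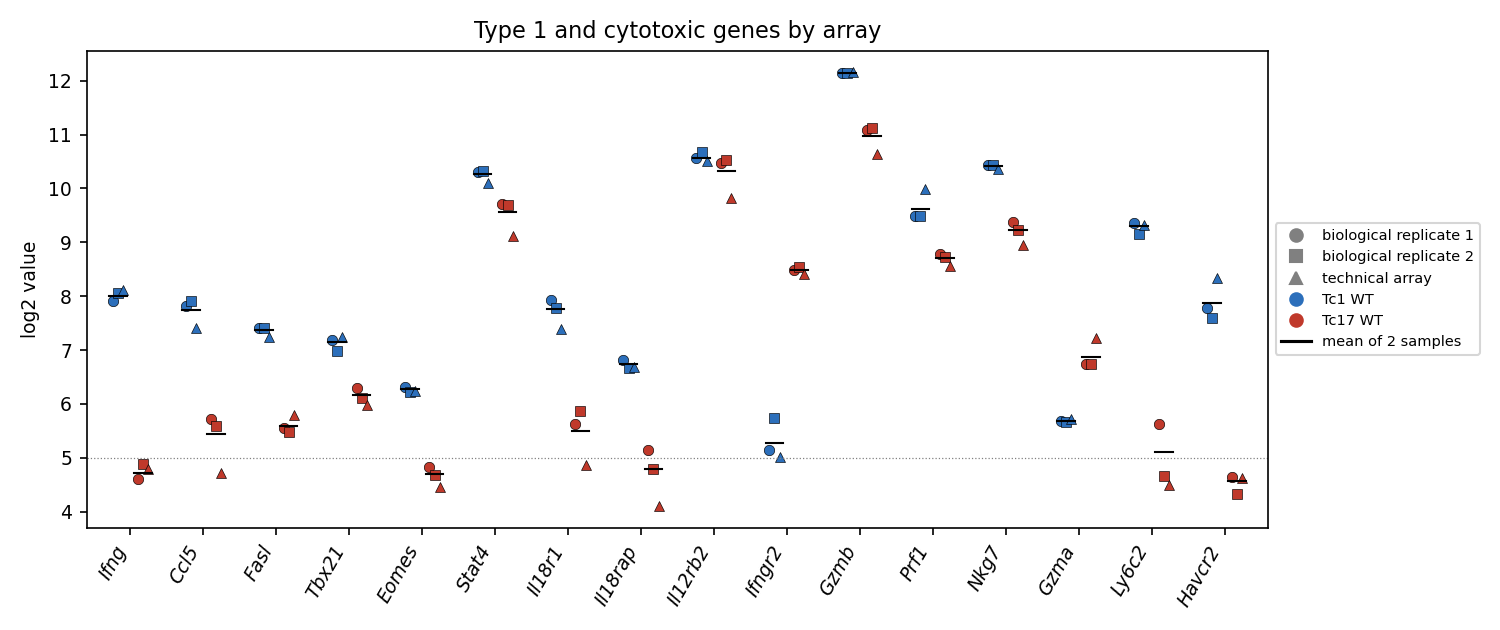
Log2 value (vertical axis) on each WT array for 16 type 1, receptor and cytotoxic genes, Tc1 WT in blue and Tc17 WT in red, with circles and squares for biological replicates, triangles for technical arrays, bars for the mean of 2 samples and a dotted line at the filter value of 5. Ifng, Ccl5, Il18r1, Ly6c2, Havcr2 and Ifngr2 have group means more than 2 apart on the log2 scale. Il12rb2 overlaps, and Ifngr2 and Gzma are higher in Tc17 WT.

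Most tested genes that interferon-gamma induces were lower in Tc17 WT, where 18.0% of all genes tested were called lower and 7.01% higher. Of 13 tested 8 fell and 1 rose, with a median of -0.74, and 5 fell without Tc1 WT replicate 1. The guanylate-binding proteins Gbp7, Gbp3 and Gbp5, which act against intracellular microbes, fell by 3.00 ± 0.29, 1.84 ± 0.14 and 1.74 ± 0.15. Gbp7 was at 9.33, 9.31 and 9.39 in Tc1 WT and 6.90, 6.43 and 5.10 in Tc17 WT, where the technical array was the lowest. Among MHC class I presentation genes, many of which interferon-gamma also induces, 7 of 15 tested fell and 0 rose. With arrays centred on the median of tested genes, cyclic loess or quantile normalization 6 fell and 1 rose. Psmb9, an immunoproteasome subunit, fell by 0.72 ± 0.10, and Tap2 and Tap1, the peptide transporter of the endoplasmic reticulum, by 0.70 ± 0.09 and 0.68 ± 0.12. Of 13 tested genes of the type I interferon list 2 were called lower, beside 18.0% of all genes tested, and the lists were not tested against each other. They were Isg20, an exonuclease, by 0.95 ± 0.12, and Usp18, which removes ISG15 from proteins, by 0.56. With arrays centred on the median of tested genes 2 members of this list were called higher and 1 lower. With cyclic loess or quantile normalization it was 2 and 2. The Usp18 call was lost without Tc1 WT replicate 2 (adjusted p = 0.146) or Tc17 WT replicate 2 (0.116).

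Genes on the inhibitory receptor list, not all of them receptors, moved in both directions, where 7.01% of all genes tested were called higher and 18.0% lower. Havcr2, encoding TIM-3, a receptor first known from type 1 T cells, fell by 9.93-fold (-3.31 ± 0.10), from 7.79, 7.59 and 8.34 in Tc1 WT to 4.64, 4.33 and 4.63 in Tc17 WT. Cd200, an inhibitory ligand, rose by 1.88 ± 0.17. Nt5e, encoding CD73, which makes adenosine from AMP, rose by 1.00 ± 0.15, whereas Entpd1, encoding CD39, which works one step before it, fell by 1.10 ± 0.13. With arrays centred on the median of tested genes, cyclic loess or quantile normalization 6 members of the list rose. With centring on the median of all probe sets 2 rose, and 5 fell under each of these scalings. Of 15 tested 4 rose and 5 fell, and 2 rose and 3 fell without Tc1 WT replicate 2.

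The leukotriene receptors measured here rose. Cysltr1, a receptor for cysteinyl leukotrienes, lay between 4.18 and 4.40 on Tc1 WT arrays and between 8.39 and 8.52 on Tc17 WT arrays, higher by 4.15 ± 0.11 (17.8-fold). It passed the filter only through Tc17 WT. Cysltr2, the related receptor, rose by 1.33 ± 0.19, and Ltb4r1, the leukotriene B4 receptor, by 1.58 ± 0.12. Of 10 tested genes of adenosine and lipid mediators 4 rose and 2 fell, beside 7.01% and 18.0% of all genes tested.

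Naive and memory genes leaned higher in Tc17 WT, 8 of 16 rising and 1 falling, with a median of 0.31, and 5 rose without Tc1 WT replicate 2. Ccr7, the receptor that guides T cells into lymph nodes, was at 8.71, 8.68 and 7.51 in Tc1 WT and 10.03, 10.08 and 9.85 in Tc17 WT, higher by 1.59 ± 0.21. Here it was the Tc1 WT technical array that stood low. Cxcr5, the receptor for B-cell follicles, rose by 0.99 ± 0.11 and passed the filter only through Tc17 WT. Klf2, which maintains the genes of circulating T cells, fell by 0.85 ± 0.10. S1pr1, the receptor for leaving lymph nodes, rose by 0.76, a call lost without Tc1 WT replicate 2 (adjusted p = 0.061) or Tc17 WT replicate 2 (0.062).

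Of 23 tested homing receptors and integrins 10 rose and 7 fell, beside 7.01% and 18.0% of all genes tested. Itga3, an integrin chain that passed the filter only through Tc17 WT, rose by 2.10 ± 0.14, and Ccr4, a skin-homing receptor, by 2.03 ± 0.15. Fut7, an enzyme that builds selectin ligands, fell by 1.06 ± 0.14 and passed the filter only through the Tc1 groups of both genotypes. The number that rose was 6 without Tc1 WT replicate 2, and the number that fell was 4 without Tc1 WT replicate 1. On the type 2 list 4 of 6 tested rose, with 2 rising without Tc1 WT replicate 2. Igfbp4, which binds insulin-like growth factors, led it at 3.90 ± 0.11 (14.9-fold), beside Ccr4. Gata3, the type 2 lineage factor, fell by 0.54, or by 0.35 with its probe sets averaged. Its call was lost without Tc1 WT replicate 1 (-0.55) or replicate 2 (-0.53). It was also lost with arrays centred on the median of tested genes (limma adjusted p = 0.0588), quantile normalization (0.0603) and cyclic loess (0.0771).

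Among costimulatory genes and genes of the TNF family 3 of 16 tested rose and 4 fell, beside 7.01% and 18.0% of all genes tested. With arrays centred on the median of tested genes, cyclic loess or quantile normalization 3 rose and 2 fell. Tnfsf14, encoding the ligand LIGHT, rose by 1.60 ± 0.11, and Tnfrsf25, encoding the receptor DR3, by 1.28 ± 0.12, both passing the filter only through Tc17 WT. The number that fell was 2 without Tc1 WT replicate 1 and 2 without Tc17 WT replicate 2. IL-2 and STAT5 targets had 5 of 17 lower and 2 higher, with 3 lower in each fit that left out 1 of the Tc1 WT samples, Tc17 WT replicate 2 or 1 of the Tc17 STAT3-/- samples. The balance of these targets followed the scaling. With arrays centred on the median of tested genes 5 were higher and 3 lower, with cyclic loess 4 and 3, and with quantile normalization 3 and 3. Centring on the median of all probe sets gave 2 and 6. Socs2, a feedback inhibitor of STAT5, fell by 0.59, or by 0.37 with its probe sets averaged.

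AP-1 and immediate early genes had 10 of 20 tested higher and 4 lower, and 6 higher without Tc1 WT replicate 1. Over all genes tested 7.01% were called higher and 18.0% lower. Batf3, an AP-1 factor, rose by 1.62 ± 0.14, Nr4a1, induced by antigen-receptor signalling, by 0.95 ± 0.15, and Atf3, a stress-induced factor, by 0.95 ± 0.10. The phosphatases Dusp6 and Dusp1, which switch off MAP kinases, fell by 2.0 ± 0.12 and 1.04 ± 0.10. The fall of Dusp6 was 0.87 with its probe sets averaged. The number that fell was 2 without any 1 of the Tc1 WT or STAT3-/- samples.

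Genes of cell division were lower in Tc17 WT, where 18.0% of all genes tested were called lower and 7.01% higher. Of 23 tested S phase genes 20 fell and 0 rose, with a median of -0.52, which is -0.42 relative to all genes. Chaf1a, a histone chaperone subunit, fell by 0.83 ± 0.09, Rpa2, a single-strand DNA binding subunit, by 0.78 ± 0.08, and Mcm5, part of the replication helicase, by 0.75 ± 0.09. Mcm5 was at 10.15, 10.15 and 10.28 in Tc1 WT and 9.53, 9.59 and 9.10 in Tc17 WT. Of 23 mitosis genes 18 fell and 0 rose, with a median of -0.46. Birc5, encoding survivin, fell by 0.88 ± 0.15, Bub1b, of the spindle checkpoint, by 0.71 ± 0.09, and the mitotic kinase Aurkb by 0.69 ± 0.12. Under each scaling tried 0 members of either list were called higher, but the counts of lower genes changed. With arrays centred on the median of tested genes 16 S phase genes were lower, and with cyclic loess 15. With quantile normalization the number was 18, and with arrays centred on the median of all probe sets it was 21. Mitosis genes lower were 11, 10, 14 and 23 under the same scalings, and 10 and 9 without Tc1 WT replicate 1 and 2.

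Cholesterol synthesis genes had 9 of 16 tested lower and 0 higher, beside 18.0% and 7.01% of all genes tested, with a median of -0.37. Hmgcs1, an early enzyme of the pathway, fell by 0.83 ± 0.10, from 11.14 to 11.18 down to 10.05 to 10.43. The number lower was 6, 6, 7 and 9 under the scalings in the order above. Without Tc1 WT replicate 1 it was 4, without Tc1 WT replicate 2 it was 3, and without Tc17 WT replicate 2 it was 6. Glycolysis and hypoxia genes had 17 of 21 tested not called, with 3 higher and 1 lower, and 1 higher without either Tc1 WT sample. Over all genes tested 7.01% were called higher and 18.0% lower. The number of these genes called lower was 0, 0, 0 and 1 under the scalings in the order above. It was 3 with technical arrays left out and up to 11 over all alternatives. Hif1a, the hypoxia factor, rose by 0.63 ± 0.09, but was at 0.16 (adjusted p = 0.454) with its probe sets averaged. Of 12 tested BCL2 family and death receptor genes 3 fell and 0 rose, beside 18.0% and 7.01% of all genes tested. Under the scalings in the order above 2, 2, 2 and 3 fell and 3, 2, 2 and 0 rose. Bcl2l11, encoding the death-promoting protein Bim, fell by 1.74 ± 0.17, from values of 6.33 to 6.78 to values of 4.34 to 5.22, and Bid, a related protein, by 0.71 ± 0.12.

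**Figure D3:**
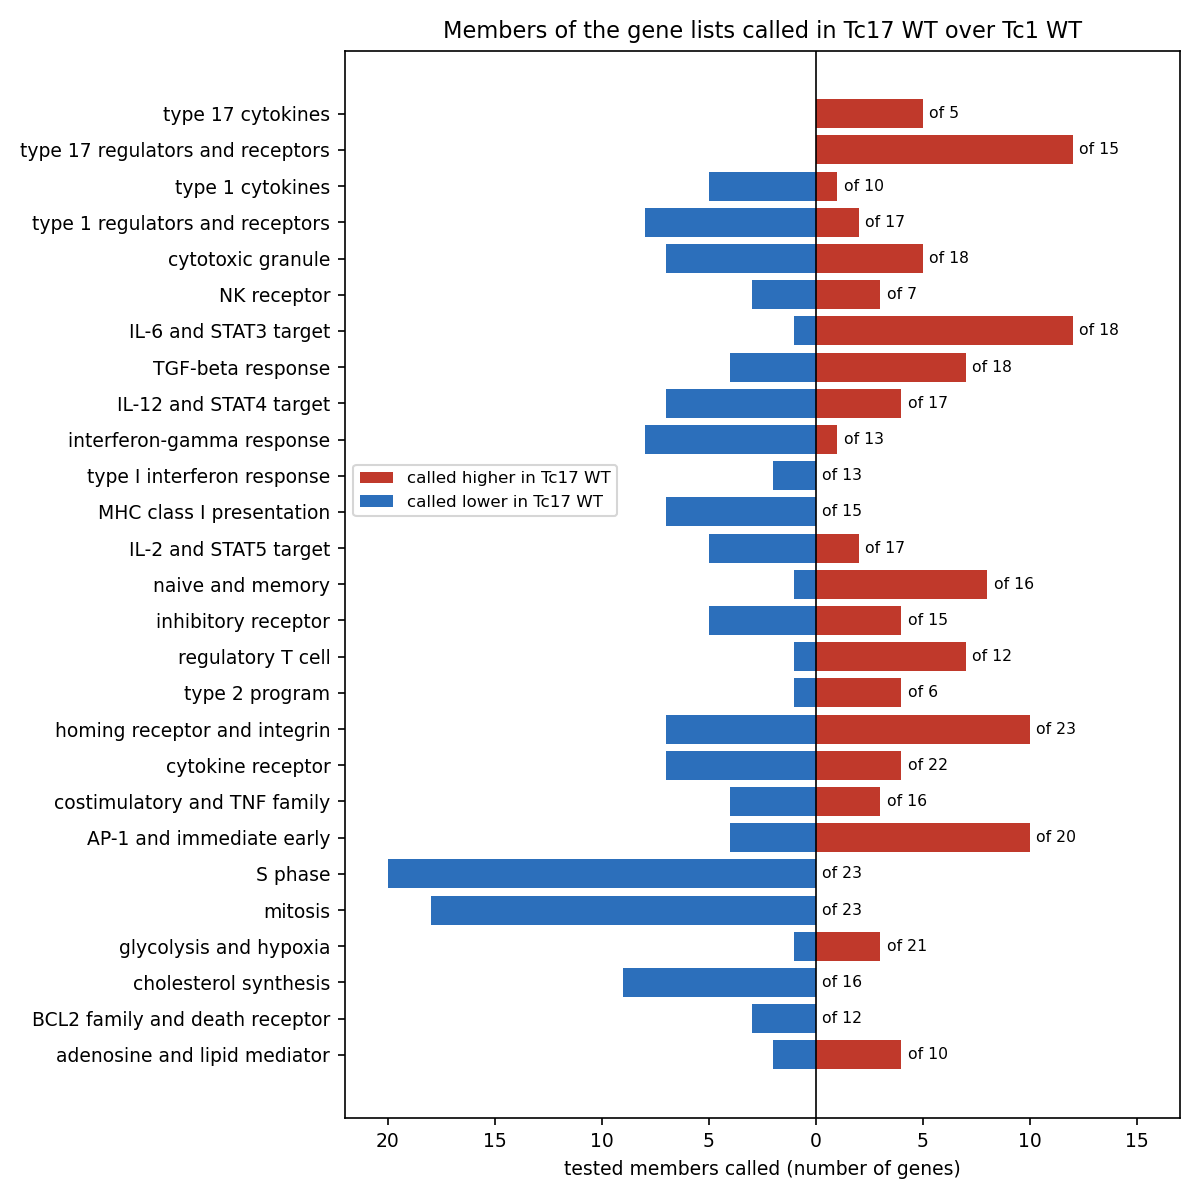
Number of tested members of each of 27 gene lists called higher (red, to the right) or lower (blue, to the left) in Tc17 WT than in Tc1 WT, with the number tested beside each bar. All counts are of the values as deposited. Called members lie on 1 side for the type 17, S phase, mitosis, cholesterol, MHC class I, type I interferon and BCL2 family lists. With arrays centred on the median of tested genes, cyclic loess or quantile normalization, the last 3 of these have called members on both sides. The other lists, among them granule, NK receptor and inhibitory receptor, have members on both sides. Over all genes tested 7.01% were called higher and 18.0% lower.

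Genes outside the lists completed the 15 largest changes each way. Cpd, a carboxypeptidase of the secretory pathway, was at 5.84, 5.76 and 5.28 in Tc1 WT and 9.65, 9.69 and 10.26 in Tc17 WT, higher by 4.13 ± 0.16 (17.5-fold). Muc13, a membrane mucin, rose by 3.91 ± 0.23, Ecm1, an extracellular matrix protein, by 3.67 ± 0.14, Tgm2, a transglutaminase, by 3.38 ± 0.18, and Slc15a1, a peptide transporter, by 3.27 ± 0.15. Muc13, Ecm1 and Slc15a1 passed the filter only through the Tc17 groups of both genotypes. Falls included Ms4a4b, a T-cell membrane protein (-2.97 ± 0.20), Itih5, a hyaluronan-associated inhibitor chain (-2.54 ± 0.09), and S100a6, a calcium-binding protein (-2.18 ± 0.16). They also included Sema4a, a semaphorin (-2.06 ± 0.10), Pygm, muscle glycogen phosphorylase (-2.04 ± 0.11), and Rasgrp2, an exchange factor for Rap GTPases (-2.04 ± 0.10). These 30 genes were chosen as the largest changes whose arrays did not overlap, so their sizes are a description. Of the 57 named genes called higher, 17 had a Tc1 WT mean under the filter, and 11 of these passed it through Tc17 WT alone. Of the 65 called lower, 14 had a Tc17 WT mean under it. Restricted to the 9112 genes with both WT means at 5 or more, 2198 were called (24.1%), 560 higher and 1638 lower.

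The labelled cell type was borne out by Cd8a and Cd8b1. All 8 genes of the CD8 T cell marker list on the array, which includes general T cell genes such as Cd5, reached the filter in both WT groups. Cd8a was at 11.21 to 11.32 in Tc1 WT and 11.05 to 11.26 in Tc17 WT, and Cd8b1 at 10.82 to 10.91 and 10.81 to 11.03. Neither was called (adjusted p = 0.501 and 0.726). One of the 8 was called, Cd5 at 0.34, a call lost without any 1 of the WT samples (adjusted p between 0.0585 and 0.145). Of other cells, 2 of 3 CD4 T cell markers, 2 of 7 B cell, 2 of 12 myeloid, 1 of 5 NK and innate-like and 0 of 2 erythroid markers reached the filter in the WT groups. Cd4 was not called at 0.26, but was at 0.79 with the technical arrays left out (adjusted p = 0.0119). The summed linear level of the B cell markers was 1546 to 1562 on Tc1 WT arrays and 692.4 to 731.4 on Tc17 WT arrays. It moved with Ighm, an immunoglobulin heavy chain, which fell by 1.35 ± 0.10, or by 0.38 with its probe sets averaged. Its part in the other differences was not tested. In these bulk samples a smaller share of cells of 1 state and less RNA per cell cannot be told apart.

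In STAT3-/- cells from the same cultures the comparison of Tc17 with Tc1 called 204 genes (2.07%), 104 higher (1.05%) and 100 lower (1.01%). Stat3 lay between 6.99 and 7.67 on Tc1 STAT3-/- arrays and between 7.59 and 7.93 on Tc17 STAT3-/- arrays, below every WT array; the exons its probes cover are not known here. The comparison uses other arrays than the WT comparison, with the spread estimated in the same fit. Of the 2468 genes called in WT 145 were also called in STAT3-/-, which is 5.88% of the WT calls and 71.1% of the STAT3-/- calls, 120 in the same direction and 25 in the opposite one. The test of the difference between genotypes called 676 genes (6.85%), 234 with the WT change more positive (2.37%) and 442 more negative (4.48%). Of the WT calls 614, or 24.9%, were among them. The change had the same direction and was smaller in STAT3-/- for 258 of these. For the other 356 it was larger or had the other sign, however close to 0 it lay in STAT3-/-. Itih5 (0.04 in STAT3-/-) and Pygm (0.14), neither called there, are among the 356, so that count does not measure reversal. Without 1 sample the STAT3-/- count ranged from 65 to 247 and the count of differences between genotypes from 244 to 1555.

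Il17a, Il17f, Il24 and other type 17 genes changed less in STAT3-/- cells. The named genes with the largest difference between genotypes were Il17f (4.74 in WT, 0.34 in STAT3-/-), Il24 (4.86 and 0.76), Il17a (4.17 and 0.30), Cysltr1 (4.15 and 0.65), Ecm1 (3.67 and 0.46) and Igfbp4 (3.90 and 0.74). The adjusted p of the difference was at most 0.000278 for these 6. Maf (3.36 and 0.36), Il21 (2.97 and 0.05), Il6ra (2.25 and 0.36) and Socs3 (1.19 and 0.02) also differed between genotypes, with adjusted p-values from 8.58e-06 to 0.00165. Of these genes Il17f, Il24, Il17a, Cysltr1, Maf and Il21 passed the filter only through Tc17 WT, which favours a smaller change in STAT3-/-. All but Il6ra and Socs3 were also chosen among the largest WT changes, which favours it too. Ifng fell by 3.28 in WT and by 0.78 in STAT3-/- (adjusted p of the difference 5.92e-05), and Gzmb by 1.16 and 0.17 (0.00378). Tbx21 was at -0.99 and -0.35 (0.0357), a call lost without any 1 of the Tc1 WT, Tc1 STAT3-/- or Tc17 STAT3-/- samples (0.0866 to 0.149).

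Other genes did not pass the test of the difference as fitted without a block. Itgae rose by 4.05 ± 0.20 in WT and by 3.89 ± 0.20 in STAT3-/- cells, a difference of 0.16 ± 0.29 (adjusted p = 0.758). It passed the filter only through the Tc17 groups, which favours a rise in both genotypes. Il18r1 fell by 2.26 and by 2.58 (difference 0.32 ± 0.19, adjusted p = 0.34), and Prf1 by 0.90 and by 1.11 (0.21 ± 0.18, 0.493). Foxp3 rose by 2.02 ± 0.22 in WT and by 3.16 ± 0.22 in STAT3-/-, a difference of -1.14 ± 0.30 (adjusted p = 0.06). It was called at -1.59 without the Tc17 WT technical array (0.00149), at -1.51 without Tc17 WT replicate 2 (0.00754) and at -0.76 without Tc17 WT replicate 1 (0.0408). Ahr rose by 2.25 and 1.33 (difference 0.92 ± 0.23, adjusted p = 0.0511), and was called at 1.20 without Tc17 WT replicate 1 (0.00572). Eomes was at -1.58 and -0.92 (0.12) and was called at -0.91 without Tc1 STAT3-/- replicate 1 (0.0446), and Il18rap at -1.95 and -1.18 (0.158) was called at -1.12 without Tc17 WT replicate 1 (0.0197). The genotypes of a fate were grown mixed, so their samples share cultures, though the labels do not say that the replicate number marks one. With fate and number as a block, chosen after seeing the data, the differences of Foxp3 (adjusted p = 0.00497), Ahr (0.00492), Eomes (0.0283) and Il18rap (0.0161) were called. With the number alone as a block they were called too (0.0197, 0.0291, 0.0301 and 0.0319). Gbp7 was gained by both, with a WT minus STAT3-/- difference of -1.36 (0.00533 and 0.0415). A miss by the test does not show that the genotypes are alike.

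**Figure D4:**
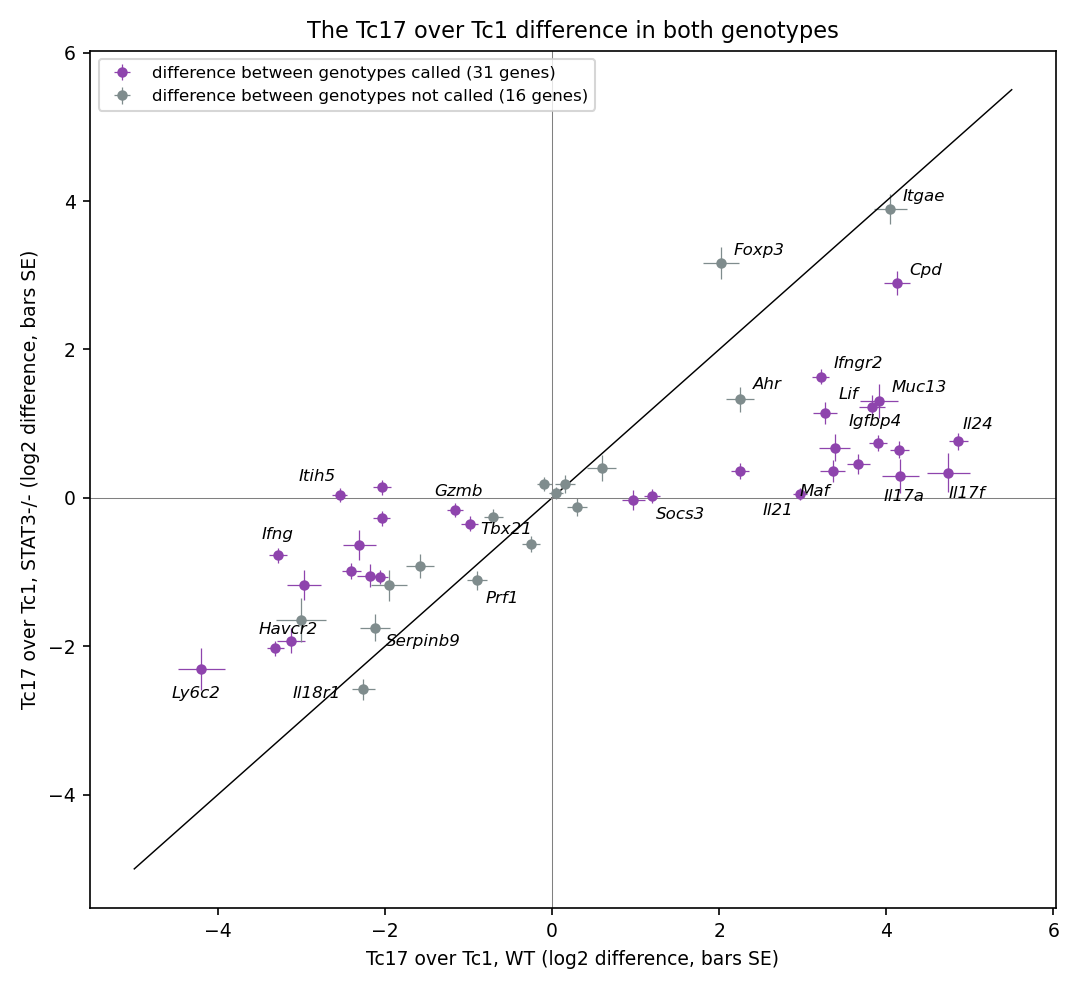
Log2 difference of Tc17 over Tc1 in STAT3-/- cells (vertical axis) against that in WT cells (horizontal axis) for the 47 tested genes that are among the 15 largest changes each way or the genes named whatever their value, with SE bars (n = 2 samples per group) and equality on the diagonal. The difference between genotypes was called for 31 (purple) and not for 16 (grey), beside 6.85% of all genes tested; the choice of 30 of the genes for their WT change favours such calls. Itgae and Il18r1 lie near the diagonal, and Il17a, Il17f and Il24 lie near 0 to 1 in STAT3-/-.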

How the data were processed

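Mouse CD8 T cell RNA was hybridised to Affymetrix arrays, 3 arrays in each of 4 groups. The deposited table holds log2 intensities, 1 for each probe set and array, and the authors used RMA and Partek to make them, per the submitters' processing notes. The tools' versions and roles are not given in the sources used. RMA removes background, makes arrays comparable and merges probes into 1 value, which narrows differences near background. That the scale is log2 follows from the range, whose maximum is 13.3.

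Of 41345 probe sets 23521 had 1 gene symbol, 1814 several and 16010 none as used here; only the first were used. Identifiers of 23328 matched RefSeq genes of GRCm38.p6. For the 1082 genes with several probe sets the brightest was kept, giving 22180 genes, and 9862 with at least 1 of 4 group means at 5 or more were tested (12318 removed). The technical array of each group was averaged with biological replicate 2. The labels do not say which sample it repeats. Its distance from either biological array exceeded the distance between those.

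Means of the 4 groups were estimated from the 8 samples using limma 3.58.1 (R 4.3.3; lmFit, contrasts.fit, eBayes), with 4 residual and 4.87 prior degrees of freedom. Adjusted p-values are two-sided. Tables were read with data.table (version 1.17.8), and figures drawn with matplotlib 3.10.9 and pandas 2.3.3 in Python 3.11.15. The fit was tried on simulated data with independent noise in each sample, unlike samples that share cultures, and no result given here rests on that trial. Upstream sequences are RefSeq's, and 7872 of the genes tested had one.

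The comparison and all 27 gene lists and 6 marker lists were chosen with earlier results of these data known, so list counts are descriptions. Named genes were the 15 largest called changes each way whose arrays did not overlap (clone names left out), a set named whatever their value (1 of which is not reported here), and in each list up to 3 called members each way. Alternatives concerned the technical arrays, scaling, filter, probe sets, variance model, replicate block, fold threshold and leaving out each sample.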

Additional observations from a re-analysis of the deposited data

Results flagged for a closer look

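The change from Tc1 to Tc17 differed between WT and STAT3-/- cells, by the limma test of the difference, for 31 of the 47 genes on which the genotypes were compared, beside 6.85% of all genes tested. Of the 47, 30 were chosen as the largest WT changes, which favours a difference, and 26 of these were called against 5 of the other 17. The filter was passed through Tc17 WT alone by 6 of the 31: Il17f, Il24, Il17a, Cysltr1, Maf and Il21. Values below are the log2 difference in WT minus that in STAT3-/-, with n = 2 samples per group. More positive in WT were the cytokines Il17f (4.40), Il24 (4.10), Il17a (3.87), Il21 (2.92) and Lif (2.60). So were the regulators and receptors Maf (3.00), Il6ra (1.89), Ifngr2 (1.58), Socs3 (1.17) and Rora (1.00). The other genes more positive in WT were Cysltr1 (3.50), Ecm1 (3.21), Igfbp4 (3.15), Tgm2 (2.70), Muc13 (2.60), Slc15a1 (2.13) and Cpd (1.24). More negative in WT were the type 1 and granule genes Tbx21 (-0.64), Gzmb (-0.99), Serpinb6b (-1.20), Sytl2 (-1.42), Ccl5 (-1.67) and Ifng (-2.50). Surface and other genes more negative in WT were Sema4a (-0.99), S100a6 (-1.13), Havcr2 (-1.28), Rasgrp2 (-1.76), Ms4a4b (-1.80), Ly6c2 (-1.89), Pygm (-2.18) and Itih5 (-2.58). In STAT3-/- cells Itih5 and Pygm were at 0.04 and 0.14 and were not called. Differences lost without 1 sample were those of Ly6c2, S100a6, Tbx21, Serpinb6b, Rora and Cpd, the last at adjusted p-values of 0.0539 without Tc1 STAT3-/- replicate 1 and 0.0661 without Tc17 STAT3-/- replicate 1. All 31 kept their sign under every alternative in which they were computed.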

How the results depend on the processing

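Directions of the named genes held better than the number of calls. For the 130 named genes tested, no called difference of Tc17 WT over Tc1 WT reversed in any alternative, and 3205 of the recomputed values kept their side of the threshold, 141 lost the call and 16 gained it. The count of 2468 genes became 6101 (1667 higher, 4434 lower) with technical arrays as samples of their own and a random block, whose estimated correlation was -0.73. It became 1479 (458 and 1021) with only the 4 WT samples and 274 (148 and 126) at 2-fold or more. Leaving out 1 sample gave 1100 to 3232 genes, 370 to 667 higher and 691 to 2576 lower. Subtracting the median of tested genes gave 1139 higher and 1115 lower, cyclic loess 1086 and 1069, and no filter 1163 lower. For these splits the causes were not tested. The 204 genes of the STAT3-/- comparison became 398 without technical arrays, 1592 with the random block, 67 at 2-fold or more and 65 to 247 without 1 sample. The 676 differences between genotypes became 1246, 4796 and 218 under the same settings, 384 with no filter and 244 to 1555 without 1 sample. The labels tie WT and STAT3-/- cells to mixed cultures but do not say that a replicate number marks one. Deviations of same-numbered samples correlated at 0.455 between genotypes in Tc1 and 0.099 in Tc17, and at 0.143 between the fates in WT. With a replicate block the calls were 3039 in WT, including all 2468, 295 in STAT3-/- and 1018 between genotypes. With a replicate block within each fate, chosen after seeing the data, 1150 differences between genotypes were called, including all 676. Where 1 sample was left, it was assumed to vary like the other groups.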
